A study of Rattus norvegicus with 12 samples.

Results

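The genes described here are 10 inflammatory cytokine and NF-kB genes, measured in rat muscle cells treated with GR24, pinosylvin or resveratrol. They were chosen by name: the chemokines Ccl2 and Cxcl1, the cytokine Il6, the NF-kB subunit genes Nfkb1 and Nfkb2, the inhibitors Nfkbia and Tnfaip3, the prostaglandin-producing enzyme Ptgs2, and the adhesion molecules Icam1 and Vcam1. Probes were assigned to a gene through the RefSeq transcript they carry, which gave 10 probes for 9 of the 10 genes, of 16581 genes named on the arrays. Tnfaip3 had no probe named in this way and was not analysed here.

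NF-kB is a family of dimeric transcription factors that inhibitor proteins hold in the cytoplasm. Cytokines, bacterial products and cellular stress lead to the breakdown of the inhibitors, the dimers enter the nucleus, and genes for chemokines, adhesion molecules and prostaglandin synthesis are transcribed together with genes for the inhibitors themselves, which closes a feedback loop. Skeletal muscle fibres are a known source of such signals during exercise, injury and wasting.

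Messenger RNA was measured on 12 single-colour Agilent arrays, 3 in each of 4 groups, in L6 cells, a rat myoblast line that fuses into myotubes in low serum. The myotubes were differentiated in 2% horse serum and received 60 µM GR24, 60 µM pinosylvin, 60 µM resveratrol or the solvent DMSO alone for 24 h, with DMSO present in all groups. Treatment began after 6 days of differentiation by the sample labels and after 7 days by the published methods. The replicates are independent experiments on a single batch of 1 cell line, and replicates 1 and 2 of each group were hybridized on one slide and replicate 3 on another. GR24 is a synthetic analog of the strigolactones, a class of plant hormones. Pinosylvin and resveratrol are plant stilbenes, and resveratrol carries an additional hydroxyl group. The scanner software marked between 58.0% and 64.3% of the spots of an array as well above background. The small number of arrays limits the precision of every value.

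Levels below are log2 signals relative to the 75th percentile of their own array, so that a level of 0 equals that percentile, and they compare arrays for 1 probe, not different genes with each other. A difference was called when its adjusted p, from a limma fit of all 12 arrays and all 24279 tested probes, was under 0.05. This fit had no term for replicate number or slide. The p-values were adjusted within each of 6 comparisons, 3 of a compound with control and 3 between the compounds. The comparisons with control share the same 3 control arrays. All 9 genes were well above background on all 12 arrays.

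Each of 9 myotube marker genes was above background on each array, but several were far lower with GR24 than in control: Myog by a log2 difference of -5.83 (57.0-fold), Acta1 by -3.88, Actc1 by -2.90, Ckm by -2.58 and Cav3 by -2.44, with a median of -2.44 over the list. Des (-0.09, adjusted p = 0.566) and Mb (-0.19, adjusted p = 0.424) were not called. In each marker list, the gene with the strongest probe signal is given as a reading of its probe, not as a rank of abundance. Here it was the embryonic myosin heavy chain Myh3, whose probe weighs most in the sum. The summed level, in multiples of the 75th percentile, was 744, 810 and 701 in the control replicates, 301, 288 and 284 with GR24, 822, 856 and 796 with pinosylvin, and 609, 624 and 585 with resveratrol. The Myh3 levels were 8.84, 8.97 and 8.75 in control, 7.90, 7.83 and 7.82 with GR24, 8.91, 9.04 and 8.88 with pinosylvin, and 8.57, 8.57 and 8.51 with resveratrol. The GR24 arrays were therefore lowest in both measures. Of the 9 marker genes, 7 were called lower with GR24 (25.5% of all tested probes were) and 5 lower with resveratrol (8.99%), while 2, Myog and Tnnt3, were called higher with pinosylvin (8.28%). In bulk RNA, fewer myotubes and less RNA per myotube cannot be told apart. Of 10 leukocyte markers, the defining genes Ptprc, Adgre1, Itgam, Aif1 and Spi1 were too dim to test. The summed leukocyte list was 1.52, 1.48 and 1.76 in control, 4.69, 4.54 and 4.33 with GR24, 1.55, 1.41 and 1.58 with pinosylvin, and 1.51, 1.62 and 1.79 with resveratrol, with the strongest probe signal from Cd14. Its rise with GR24 lay in Cd14, Cd68 and Lyz2, whose log2 differences from control were 1.80, 2.67 and 0.97. These were the 3 of 5 tested leukocyte markers called higher with GR24, where 31.5% of all tested probes were. The other tested ones, Csf1r (-0.03, adjusted p = 0.954) and Laptm5 (-0.09, adjusted p = 0.842), were not called. The summed level of 5 fibroblast markers (strongest probe signal, Col1a1) was 122, 122 and 114 in control, 70.8, 68.1 and 65.6 with GR24, 87.8, 95.3 and 100.3 with pinosylvin, and 89.5, 85.7 and 95.5 with resveratrol. It too was lowest with GR24, but the Col1a1 probe weighs most in this sum. With GR24, 4 of the 5 were called lower (25.5% of all tested probes were) and Pdgfra higher (0.23, background 31.5%). Pinosylvin had 2 higher (8.28%), Pdgfra (0.43) and Lum (0.53), and 2 lower (8.27%). Resveratrol had 1 higher (7.99%), Pdgfra (0.35), and 1 lower (8.99%). What these shifts contribute to the values below was not tested.

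With GR24, 4 of the 9 genes were called higher than control, where 31.5% of all tested probes were, and 3 were called lower, where 25.5% of all probes were. GR24 changed much of the transcriptome, and these shares of the 9 genes are near the background. Pinosylvin raised 3 of the 9 genes against a background of 8.28% and lowered 0, with 8.27% of all probes lower. Resveratrol raised 3 and lowered 0 of the 9, against 7.99% and 8.99% of all probes. The count of 3 in 9 is above these backgrounds for both stilbenes, in genes picked with earlier results of these data known. With the replicate number as a block, the backgrounds were larger, 16.3% higher and 12.3% lower with pinosylvin and 14.1% and 13.8% with resveratrol, and the counts were 3 higher and 0 lower with pinosylvin and 3 higher and 1 lower, Ptgs2, with resveratrol. The 3 genes that rose were in each case Ccl2, Cxcl1 and Vcam1. GR24 and pinosylvin differed in 7 of the 9 genes and GR24 and resveratrol in 6, where 56.4% and 51.4% of all probes differed. Pinosylvin and resveratrol differed in 2, near the background of 14.5%.

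**Figure D1:**
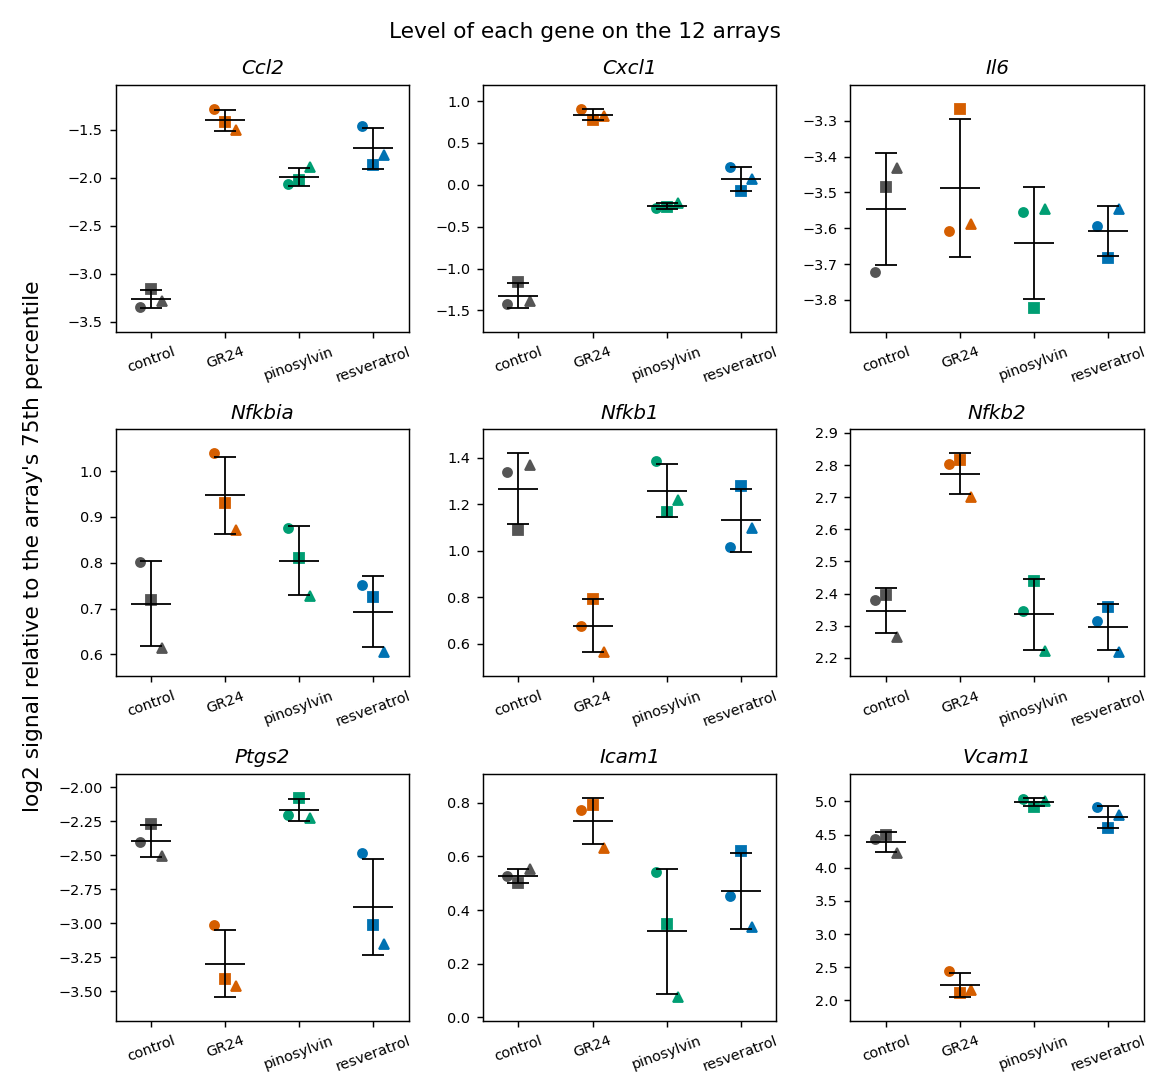
Level of each of the 9 genes on the 12 arrays, as log2 signal relative to the 75th percentile of the array (vertical axes, scaled for each gene). Circles, squares and triangles are replicates 1, 2 and 3, the long bar is the group mean and the error bars are the SD of 3 arrays. Ccl2 and Cxcl1 lie above control on every treated array, while Vcam1 lies below control on the GR24 arrays and above it on the others.

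The chemokine genes rose with all 3 compounds. Ccl2 encodes the protein that draws monocytes into tissue. Its control levels were -3.34, -3.16 and -3.28, and its GR24 levels were -1.28, -1.41 and -1.50. The pinosylvin arrays read -2.06, -2.02 and -1.89 for Ccl2, and the resveratrol arrays read -1.46, -1.87 and -1.76. Every treated array was above every control array, the pinosylvin arrays were the lowest of the treated ones, and the GR24 and resveratrol arrays overlapped. Ccl2 was 3.64-fold higher than control with GR24 (log2 1.86 ± 0.11, SE, adjusted p = 2.07e-07), 2.42-fold higher with pinosylvin (log2 1.27 ± 0.11, adjusted p = 2.93e-05) and 2.97-fold higher with resveratrol (log2 1.57 ± 0.11, adjusted p = 1.5e-05). Each array has 9 or 10 usable Ccl2 spots, and the SD between them was 0.19, 0.17 and 0.11 in the control arrays, with a range of 0.046 to 0.19 and a median of 0.088 over the 12 arrays. The processed signal of Ccl2 was 81.5 to 349, and a normexp correction with an offset of 50 lowered its differences from control to 1.21 with GR24, 0.78 with pinosylvin and 0.97 with resveratrol. It stayed called in each of the 3 comparisons under all 26 alternatives, with an adjusted p of at most 9.76e-05, 0.00426 and 0.00206. On slide 1 alone the GR24 difference of Ccl2 was 1.91 and on slide 2, with 1 array a group, it was 1.78.

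Cxcl1 encodes a chemokine that attracts neutrophils. The control replicates stood at -1.43, -1.16 and -1.39 and the GR24 replicates at 0.91, 0.78 and 0.83. With pinosylvin the levels were -0.28, -0.27 and -0.21, and with resveratrol they were 0.21, -0.07 and 0.07. The 4 groups formed separate steps without overlap, from control through pinosylvin and resveratrol to GR24. Cxcl1 was 4.47-fold higher than control with GR24 (log2 2.16 ± 0.091, SE, adjusted p = 1.82e-08), 2.10-fold with pinosylvin (log2 1.07, adjusted p = 2.61e-05) and 2.62-fold with resveratrol (log2 1.39, adjusted p = 1.01e-05). Slide 1 alone gave 2.13, 1.02 and 1.36, and the single arrays of slide 2 gave 2.21, 1.17 and 1.46.

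Il6, a cytokine that contracting muscle releases, did not follow the chemokines. The levels were -3.72, -3.48 and -3.43 in control, -3.61, -3.27 and -3.59 with GR24, -3.56, -3.82 and -3.55 with pinosylvin, and -3.59, -3.68 and -3.55 with resveratrol. All 4 groups overlapped. The log2 difference of Il6 from control was 0.06 with GR24 (95% interval -0.21 to 0.32, adjusted p = 0.719), -0.10 with pinosylvin (-0.36 to 0.17, adjusted p = 0.674) and -0.06 with resveratrol (-0.33 to 0.20, adjusted p = 0.819). Its processed signal was 50.9 to 96.2, and the intervals leave room for a modest change in either direction.

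**Figure D2:**
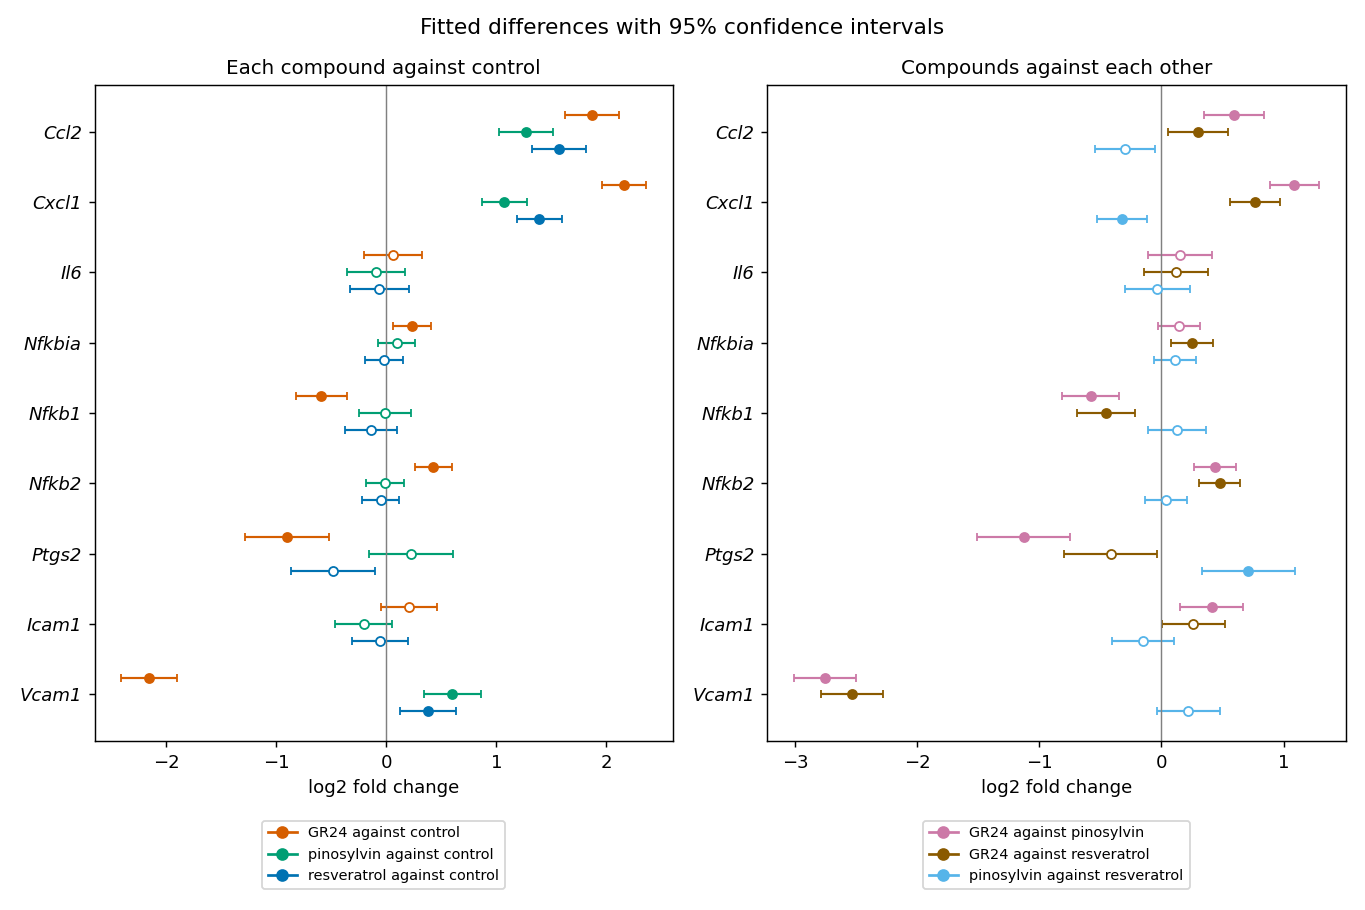
Fitted log2 differences of the 9 genes (horizontal axes) with 95% confidence intervals, for each compound against control and for the compounds against each other. Filled points have an adjusted p under 0.05. The differences of Ccl2 and Cxcl1 from control are positive for all compounds, and Vcam1 with GR24 reaches -2.15.

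The subunit genes were called with GR24, in opposite directions, and with neither stilbene. Nfkb2 encodes the precursor from which the subunit of the non-canonical pathway is cut. Its levels were 2.38, 2.40 and 2.27 in control, 2.80, 2.82 and 2.70 with GR24, 2.35, 2.44 and 2.22 with pinosylvin, and 2.32, 2.36 and 2.22 with resveratrol. The 3 GR24 arrays were the highest and the other groups overlapped. Nfkb2 was 1.34-fold higher with GR24 (log2 0.43 ± 0.076, SE, adjusted p = 6.73e-04), while its differences from control were -0.01 with pinosylvin (adjusted p = 0.952) and -0.05 with resveratrol (adjusted p = 0.754). GR24 exceeded pinosylvin by 0.44 (adjusted p = 5.97e-04) and resveratrol by 0.48 (adjusted p = 3.88e-04) for this gene.

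Nfkb1 encodes the precursor of the subunit that pairs with Rela in the canonical pathway. Its brighter probe read 1.34, 1.09 and 1.37 in control, 0.68, 0.79 and 0.56 with GR24, 1.39, 1.17 and 1.22 with pinosylvin, and 1.02, 1.28 and 1.10 with resveratrol. All GR24 arrays were below all others. The Nfkb1 signal fell by 0.59 on the log2 scale with GR24 (SE 0.106, adjusted p = 7.2e-04), and the differences were -0.01 with pinosylvin (adjusted p = 0.974) and -0.14 with resveratrol (adjusted p = 0.462). A second, dimmer Nfkb1 probe gave -1.98, -2.16 and -2.01 in control and -2.42, -2.51 and -2.55 with GR24, a difference of -0.44 (adjusted p = 0.00401). Both probes were lower with GR24 than with pinosylvin, by -0.58 (adjusted p = 8.46e-04) and -0.46 (adjusted p = 0.00328). Against resveratrol the probes parted, at -0.45 (adjusted p = 0.00445) for the brighter and -0.23 (adjusted p = 0.0883) for the dimmer.

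Nfkbia encodes the inhibitor that NF-kB itself induces. It read 0.80, 0.72 and 0.61 in control, 1.04, 0.93 and 0.87 with GR24, 0.88, 0.81 and 0.73 with pinosylvin, and 0.75, 0.72 and 0.60 with resveratrol. The GR24 arrays were above all control and resveratrol arrays and overlapped those of pinosylvin. The rise with GR24 was small, 1.18-fold (log2 0.24 ± 0.077, SE, adjusted p = 0.0228). It was not called without GR24 replicate 1 (0.19, adjusted p = 0.0933), without control replicate 3 (0.19, adjusted p = 0.0812), without the filter on dim probes (adjusted p = 0.0771) or with only the 6 arrays compared (adjusted p = 0.0647), and the adjusted p ranged from 9.08e-04 to 0.0933 over the 26 alternatives. Nfkbia differed from control by 0.09 with pinosylvin (adjusted p = 0.48) and by -0.02 with resveratrol (adjusted p = 0.933). GR24 exceeded resveratrol by 0.25 (adjusted p = 0.018), which was not called without GR24 replicate 1 (0.21, adjusted p = 0.0767), without resveratrol replicate 3 (0.21, adjusted p = 0.0725) or without the filter (adjusted p = 0.0634), in a range from 6.97e-04 to 0.0767. The difference between GR24 and pinosylvin, 0.14, was not called (adjusted p = 0.144), but was with the replicate number as a block (adjusted p = 0.0137) and under 3 more alternatives, in a range from 0.0137 to 0.393.

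Ptgs2 encodes the inducible cyclooxygenase, which makes prostaglandin precursors. Control levels were -2.40, -2.27 and -2.51, and GR24 levels were -3.02, -3.41 and -3.47. Pinosylvin gave -2.21, -2.08 and -2.23 and resveratrol -2.48, -3.02 and -3.15. Every GR24 array was below every control array, every pinosylvin array was above every control array by a small margin, and the resveratrol arrays overlapped both the control and the GR24 arrays. Ptgs2 was 1.87-fold lower with GR24 than in control (log2 -0.90 ± 0.17, SE, adjusted p = 0.00103), a difference of -0.54 after the normexp correction and -0.51 when quantile normalization followed it, with an adjusted p between 1.83e-04 and 0.0102 over the alternatives. Its difference from control was 0.23 with pinosylvin (95% interval -0.16 to 0.61, adjusted p = 0.44) and -0.49 with resveratrol (-0.87 to -0.11, adjusted p = 0.0813). The resveratrol difference was called with the replicate number as a block (adjusted p = 0.0326), with the slide as a block (adjusted p = 0.0336) and without resveratrol replicate 1 (-0.69, adjusted p = 0.0116), in a range up to 0.237. It shrank to -0.31 and -0.25 under the normexp settings, -0.32 in the series table and -0.35 without resveratrol replicate 3. GR24 lay below pinosylvin by -1.13 (adjusted p = 2.45e-04), or -0.71 and -0.66 under the normexp settings, with an adjusted p of at most 0.00467. Against resveratrol the Ptgs2 difference of GR24 was -0.42 (adjusted p = 0.0661), called with the replicate block (adjusted p = 0.0294), the slide block (adjusted p = 0.032), without GR24 replicate 1 (-0.56, adjusted p = 0.0259) and without resveratrol replicate 3 (-0.55, adjusted p = 0.0286). It shrank to -0.21 without resveratrol replicate 1 (adjusted p = 0.237, the highest of its range) and to -0.23 and -0.25 under the normexp settings.

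Of the adhesion molecules, Vcam1 differed strongly between the compounds and Icam1 by much less. Vcam1, which binds integrins of leukocytes and takes part in myoblast fusion, read 4.44, 4.50 and 4.22 in control and 2.44, 2.11 and 2.15 with GR24. With pinosylvin it read 5.04, 4.92 and 5.01, and with resveratrol 4.92, 4.60 and 4.79. The GR24 arrays were far below all others, and all arrays of both stilbenes were above all control arrays. Vcam1 was 4.45-fold lower with GR24 (log2 -2.15 ± 0.12, SE, adjusted p = 1.02e-07), with -2.20 on slide 1 and -2.07 between the single arrays of slide 2. It was 1.52-fold higher with pinosylvin (log2 0.60, adjusted p = 0.00545), a call that ended only within slide 1 (0.51, adjusted p = 0.0719, in a range from 0.00176 to 0.0719), where the slide 2 difference was 0.79. The 1.30-fold rise with resveratrol (log2 0.38, adjusted p = 0.048) was called under 13 of 26 alternatives, with an adjusted p between 0.0176 and 0.233. Of the single arrays, it was not called without control replicate 1 (0.41, adjusted p = 0.0896), 2 (0.44, adjusted p = 0.0597) or 3 (0.30, adjusted p = 0.136), or without resveratrol replicate 1 (0.31, adjusted p = 0.16) or 3 (0.37, adjusted p = 0.114). Leaving out any pinosylvin array, or GR24 replicate 2 or 3, kept the difference at 0.38 and gave an adjusted p of 0.0515 to 0.0661. GR24 was below pinosylvin by -2.75 (adjusted p = 2.38e-08) and below resveratrol by -2.53 (adjusted p = 6.24e-08) for Vcam1.

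Icam1, the ligand of leukocyte integrins on many cell types, read 0.53, 0.50 and 0.55 in control, 0.77, 0.79 and 0.63 with GR24, 0.54, 0.35 and 0.08 with pinosylvin, and 0.45, 0.62 and 0.34 with resveratrol. The GR24 arrays were the highest of all groups, and the other groups overlapped. The difference of Icam1 from control was 0.20 with GR24 (95% interval -0.05 to 0.46, adjusted p = 0.158), called only within slide 1 (0.27, adjusted p = 0.0436, in a range up to 0.315), while the single arrays of slide 2 differed by 0.08. It was -0.21 with pinosylvin (-0.46 to 0.05, adjusted p = 0.271) and -0.06 with resveratrol (adjusted p = 0.826). Pinosylvin replicate 3, the lowest of all arrays, carried most of the former: without it the Icam1 difference was -0.08 (adjusted p = 0.64), and it was -0.32 without pinosylvin replicate 1 (adjusted p = 0.101), in a range from 0.101 to 0.646. Slide 1 gave -0.07 and slide 2 -0.48. GR24 exceeded pinosylvin by 0.41 (0.16 to 0.67, adjusted p = 0.0108), with all 3 GR24 arrays above all 3 pinosylvin arrays. Its margin over resveratrol, 0.26, was not called (adjusted p = 0.0816) but was with the replicate block (adjusted p = 0.0382), the slide block (adjusted p = 0.0274), the percentile of probes above background (0.28, adjusted p = 0.0425), without pinosylvin replicate 1 (adjusted p = 0.0489) or 3 (adjusted p = 0.033), and without resveratrol replicate 2 (0.34, adjusted p = 0.0488), in a range up to 0.243.

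The stilbenes, which differ by the hydroxyl group named above, were close to each other for most of the 9 genes. Cxcl1 was lower with pinosylvin than with resveratrol by -0.32 (95% interval -0.52 to -0.12, adjusted p = 0.042), with all 3 pinosylvin arrays below all 3 resveratrol arrays. That call held under 15 of 26 alternatives, with an adjusted p of 0.0257 to 0.141, and leaving out any 1 array of pinosylvin, any of GR24, or resveratrol replicate 1 or 3 ended it, at values from -0.34 to -0.25. Ptgs2 was higher with pinosylvin by 0.71 (0.33 to 1.09, adjusted p = 0.0202), without overlap of the arrays. It was called under 17 of 26 alternatives, with an adjusted p of 0.00354 to 0.107, and was not called without pinosylvin replicate 1 (0.73, adjusted p = 0.0514) or 2 (0.67, adjusted p = 0.0748), without resveratrol replicate 2 (0.65, adjusted p = 0.0772) or 3 (0.58, adjusted p = 0.0741), or on slide 1 alone (0.61, adjusted p = 0.107). Its single-array difference on slide 2 was 0.92, and the normexp correction with quantile normalization gave 0.41 (adjusted p = 0.0387). Ccl2 was lower with pinosylvin on every array, by -0.30 (-0.54 to -0.05), but did not pass (adjusted p = 0.106). Without resveratrol replicate 1 the Ccl2 difference was -0.18 (adjusted p = 0.285, the highest of its range), after the normexp correction -0.19, on slide 1 -0.38 and between the single arrays of slide 2 -0.13. No difference was called for the other 6 genes, with intervals of -0.30 to 0.23 for Il6, -0.06 to 0.28 for Nfkbia, -0.11 to 0.36 for Nfkb1, -0.13 to 0.21 for Nfkb2, -0.40 to 0.11 for Icam1 and -0.04 to 0.48 for Vcam1, which do not show that the compounds act alike.

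Between GR24 and the stilbenes the chemokines also differed in size. Cxcl1 was higher with GR24 than with pinosylvin by 1.09 (adjusted p = 3.34e-06) and than with resveratrol by 0.77 (adjusted p = 5.11e-05). Ccl2 was higher with GR24 than with pinosylvin by 0.59 (adjusted p = 9.66e-04). Its margin over resveratrol, 0.30 (adjusted p = 0.0447), was called under 11 of 26 alternatives, in a range from 0.00593 to 0.167. Among the arrays whose removal ended that call, the values were 0.24 without GR24 replicate 1 (adjusted p = 0.153), 0.30 without GR24 replicate 2 (adjusted p = 0.0848), 0.21 without resveratrol replicate 2 (adjusted p = 0.167) and 0.26 without resveratrol replicate 3 (adjusted p = 0.124). Leaving out control replicate 1 or 3, or pinosylvin replicate 1 or 2, kept 0.30 with an adjusted p of 0.0544 to 0.0597.

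Promoter sequences were read for the NF-kB consensus. Windows of 300 bases from the RefSeq promoter table, on build GRCr8, were matched by symbol for 9 of the 10 genes, Tnfaip3 included and Ccl2 not among them. In 4 of the 9, Cxcl1, Il6, Ptgs2 and Vcam1, the start site of the window is the outer end of the gene in the RefSeq gene table, and in 5 it lies inside the gene, by 435 bases for Nfkb1 and 2364 for Nfkb2. This consensus, GGGRNWYYCC in the standard base codes, was searched on both strands for exact matches. It was found in 7 of the 9 windows, all but those of Ptgs2 and Icam1, and in 4.18% of all 33469 promoters of this length. The genes were chosen as inflammatory and NF-kB genes, so their larger share is not an independent result. The sequences of 4 genes that moved with GR24 are shown, 2 that rose (Cxcl1 and Nfkb2) and 2 that fell (Vcam1 and Nfkb1), each 5′ to 3′ with matches to the consensus in capitals. The Cxcl1 window is chr14:17479272-17479571 on the minus strand, that of Vcam1 chr2:206742734-206743033 on the minus strand, that of Nfkb2 chr1:255108124-255108423 on the plus strand and that of Nfkb1 chr2:226805413-226805712 on the minus strand.
Cxcl1: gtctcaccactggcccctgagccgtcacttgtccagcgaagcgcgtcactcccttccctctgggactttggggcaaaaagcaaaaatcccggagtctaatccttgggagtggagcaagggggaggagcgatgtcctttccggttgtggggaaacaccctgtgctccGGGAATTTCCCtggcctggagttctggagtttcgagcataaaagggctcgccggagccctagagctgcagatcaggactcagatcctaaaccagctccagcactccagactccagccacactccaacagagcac
Vcam1: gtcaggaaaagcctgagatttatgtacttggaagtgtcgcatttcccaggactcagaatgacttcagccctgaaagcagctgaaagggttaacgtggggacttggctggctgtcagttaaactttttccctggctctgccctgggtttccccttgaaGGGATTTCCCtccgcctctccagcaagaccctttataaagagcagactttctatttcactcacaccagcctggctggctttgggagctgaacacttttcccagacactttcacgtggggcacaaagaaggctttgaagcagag
Nfkb2: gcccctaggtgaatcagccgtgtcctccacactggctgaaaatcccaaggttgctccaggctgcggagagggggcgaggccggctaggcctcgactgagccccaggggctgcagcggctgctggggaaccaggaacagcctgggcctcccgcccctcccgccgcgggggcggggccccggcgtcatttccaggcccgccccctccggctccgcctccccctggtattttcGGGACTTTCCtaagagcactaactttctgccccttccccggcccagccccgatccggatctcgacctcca
Nfkb1: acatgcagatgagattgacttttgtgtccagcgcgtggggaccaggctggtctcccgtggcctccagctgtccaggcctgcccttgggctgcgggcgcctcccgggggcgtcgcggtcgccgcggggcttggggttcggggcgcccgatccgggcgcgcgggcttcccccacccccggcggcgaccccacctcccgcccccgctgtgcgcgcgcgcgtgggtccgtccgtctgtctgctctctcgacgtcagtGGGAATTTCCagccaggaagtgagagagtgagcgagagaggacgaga
In Cxcl1 the capitals cover a pair of overlapping matches, and the other windows hold 1 match each. The consensus was thus present in the windows of genes that rose and of genes that fell, and a match describes the letters only.

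Around these genes, 7 lists of pathway members and neighbours were read in the same fits. Their counts stand against the shares of all tested probes, 31.5% higher and 25.5% lower with GR24, 8.28% and 8.27% with pinosylvin, and 7.99% and 8.99% with resveratrol, and nothing is called particular to a list. With GR24, the further NF-kB subunits and inhibitors had 3 of 4 tested genes higher and 1 lower, with a median log2 difference of 0.47, where the median of all tested probes was 0.03. The inhibitors Nfkbib (0.97) and Nfkbie (0.57) and the subunit Rela (0.36) rose, and Bcl3, a nuclear member of the inhibitor family, fell, with a difference of -1.15. For Rela the levels were 2.83, 2.95 and 2.67 in control and 3.18, 3.19 and 3.15 with GR24, without overlap. With pinosylvin and with resveratrol, 0 of these 4 genes were called in the limma fit, with medians of -0.04 and -0.02. Nfkbib with pinosylvin, a difference of 0.22 (adjusted p = 0.286), was called with the replicate block (adjusted p = 0.0148) and the slide block (adjusted p = 0.00958), in a range up to 0.595.

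Upstream signalling genes, which carry the signal from the receptors to the inhibitors, had 16 of 28 higher and 0 lower with GR24, where 31.5% and 25.5% of all probes were, with a median of 0.32. The kinase Irak4 (1.04), the ubiquitin ligase Birc3 (0.89) and the deubiquitinase Cyld (0.84) led them, though Birc3 came to 0.49 under the normexp correction. Pinosylvin raised 1 of the 28 and lowered 2, no more than the background of 8.28% and 8.27%, with a median of -0.01, and Irak1 (0.40) was the one that rose. Resveratrol raised 1 and lowered 0, with a median of 0.07.

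Cytokine and pattern receptors had 10 of 16 higher and 2 lower with GR24, with a median of 0.66. Il6r, the receptor for the Il6 protein, rose from levels between -5.34 and -4.49 in control to levels between -2.16 and -1.91 with GR24. This difference of 2.84 was lowered to 1.25 by the normexp correction and put at 1.78 by the authors' series table. The control signals of Il6r were close to the lowest signals well above background, 20.1, 21.9 and 27 on the control arrays. The 75th percentile of these arrays was 972.6, 731.7 and 1038. The size of an Il6r rise over control is therefore uncertain. Tlr4, the receptor for bacterial lipopolysaccharide, rose by 1.42 and the tumour necrosis factor receptor Tnfrsf1a by 1.02, while the prostaglandin receptor Ptger4 (-1.12) and the chemokine-scavenging receptor Ackr3 (-0.50) fell. With pinosylvin 4 of the 16 were higher and 1 lower, with a median of 0.17. The pinosylvin calls of Tlr2 (0.39), Tnfrsf12a (0.35), Ackr3 (0.32) and Tlr3 (-0.57) each ended under some alternatives. Their adjusted p reached 0.0711, 0.116, 0.131 and 0.209, and the normexp correction brought Tlr3 to -0.23. With resveratrol 6 of the 16 were higher and 1 lower, with a median of 0.20. Tnfrsf1b (0.90) and the interleukin receptor Il1r1 (0.67) rose with resveratrol and Il1rl1 (-0.47) fell, with 0.44 for Tnfrsf1b under the normexp correction. Il6r was higher with resveratrol by 1.00, but only by 0.32 with normexp and quantile normalization and 0.52 in the series table, and normexp with the 75th percentile ended the call at 0.23 (adjusted p = 0.182, in a range from 9.34e-04).

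**Figure D3:**
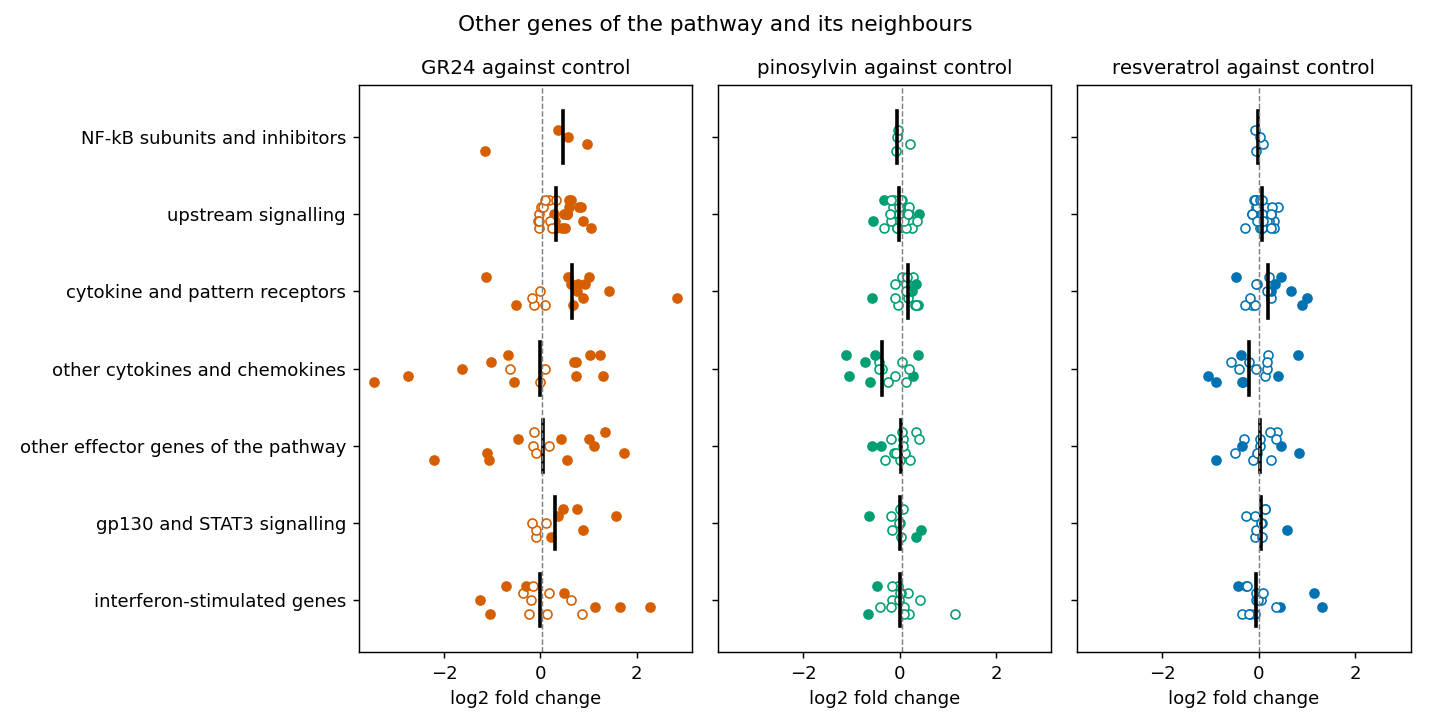
Log2 differences from control (horizontal axes) of the tested genes in 7 lists, 1 point a gene, for each compound. Filled points have an adjusted p under 0.05, black bars are list medians and the dashed line is the median of all tested probes. With GR24 the receptor list has the highest median, 0.66, and the cytokine list reaches -3.45.

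Other cytokines and chemokines were split with GR24, with 6 of 15 higher, 6 lower and a median of -0.01. The chemokines Cxcl16 (1.31) and Cxcl10 (1.23) and the ligand Tnfsf9 (1.04) rose. Cxcl12, a chemokine that guides stem cells and muscle precursors, had levels of 3.72, 3.85 and 3.61 in control and 0.38, 0.24 and 0.19 with GR24, a difference of -3.45. Il34 (-2.74) and Il11 (-1.63) fell as well, with -1.57 and -0.86 under the normexp correction. Cxcl10 parted the stilbenes: it read -1.10, -0.72 and -0.59 in control, -2.08, -2.12 and -1.55 with pinosylvin, and -0.09, 0.01 and 0.12 with resveratrol. It was below control on every pinosylvin array (log2 -1.11 ± 0.16, SE, adjusted p = 0.00107) and above it on every resveratrol array (log2 0.82 ± 0.16, adjusted p = 0.00658). The stilbenes themselves differed by -1.93 (95% interval -2.30 to -1.57, adjusted p = 5.56e-05) for this gene, without overlap of their arrays. Il34 was lower with both stilbenes (-1.05 and -1.06), Il15 (-0.71) was lower and Il18 (0.38) higher with pinosylvin, and Csf1 (0.41) was higher and Il33 (-0.89) lower with resveratrol. Il33 was also lower with pinosylvin (-0.61, adjusted p = 0.00572) and GR24 (-0.55, adjusted p = 0.0023). Under the normexp settings Il15 came to -0.32 with pinosylvin and Il33 to -0.50 with resveratrol, -0.37 with pinosylvin and -0.30 with GR24. In all, pinosylvin had 2 of the 15 higher and 5 lower, with a median of -0.36, and resveratrol 2 higher and 4 lower, with a median of -0.20. Tnf, Il1a, Il1b and 10 more cytokine genes were too dim to test.

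Other effector genes of the pathway had 6 of 14 higher and 4 lower with GR24, near the background of 31.5% and 25.5%, with a median of 0.05. The early response gene Ier3 (1.74), the phospholipase Pla2g4a (1.35), which frees arachidonic acid, and the constitutive cyclooxygenase Ptgs1 (1.11) rose, with 0.88 for Pla2g4a under the normexp correction. The urokinase gene Plau (-2.20), Tnfaip6 (-1.10, or -0.72 with normexp and quantile normalization) and Gadd45b (-1.07) fell. Ptgs1 thus rose with GR24 while Ptgs2 fell. Pinosylvin had 0 of the 14 higher and 2 lower, Tnfaip8 (-0.56) and Irf1 (-0.38). Resveratrol had 2 higher, Ier3 (0.84) and Ptgs1 (0.47), and 2 lower, among them Plau (-0.88).

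Signalling through gp130 and Stat3, the route by which Il6 acts, had 6 of 10 genes higher and 0 lower with GR24, with a median of 0.30. The transcription factor genes Fosl1 (1.56) and Cebpb (0.89) rose, and Stat3 rose by 0.76 (adjusted p = 0.0196). The Stat3 call ended without control replicate 1 (0.59, adjusted p = 0.0787) and without GR24 replicate 3 (0.68, adjusted p = 0.0624), in a range from 1.97e-04 to 0.0787. Pinosylvin raised 2 of the 10, among them Bcl6 (0.34), and lowered Fosl1 (-0.63), while resveratrol raised 1, Cebpb (0.58). Over the 33 list genes that the naming rule takes for GR24, the SE lay between 0.052 and 0.25 and the adjusted p between 4.53e-10 and 0.0196. For pinosylvin, 11 of the 19 genes named by the rule, and for resveratrol 13 of 19, were called under all their alternatives. Values for the remainder are not listed, apart from Il6r and the receptors given above for pinosylvin.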

How the data were processed

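The deposited raw files hold Agilent Feature Extraction 12.0.0.7 output, whose processed signal is a background-corrected intensity computed by the authors. The deposited series table holds log2 values, with column medians of 9.208 to 9.245 and a correlation with its own array of 0.99939 to 0.99975. Its background correction, normalization and centring are unknown.

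Outlier spots were left out, log2 processed signals were averaged per probe, and the 75th percentile over all non-control probes was subtracted on each array. Of 45598 probes, 24279 passed a filter on dim probes (above background in every array of some group) and were tested with limma 3.58.1 in R 4.3.3, with 4 group means, empirical Bayes and Benjamini-Hochberg adjustment. The limma fit was tested on simulated probe values whose noise was independent between arrays, and the earlier steps were not tested in this way. The RefSeq table (GRCr8) named 21109 probes, and a gene with several probes is given by its brightest tested one. The members and lists were chosen with earlier results of these data known. List genes are named by rule: up to 3 each way per list and compound with the largest called difference and no overlap of arrays. A gene that this rule takes is not reported here. Relb, Rel, Nfkbiz, Nfkbid, Tab2, Tab3, Traf3, Traf5, Ticam1, Tnip2, Il15ra, Cxcl3, Tslp, Ddx58 and Tnfaip3 had no named probe. Endothelial markers (0 of 3 tested genes called in the limma fit with GR24, summed level 4.30 to 5.79, strongest probe signal Vwf) and fibroblast markers (4 of 5 lower and 1 higher with GR24, strongest probe signal Col1a1) were read as well. Of all tested probes, 25.5% were lower and 31.5% higher with GR24.

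Alternatives were quantile normalization, a normexp correction with an offset of 50 (planned on the mean spot signal, which the raw files do not hold, and run on the median spot signal instead) with either scaling, the series table, the percentile over probes above background on all arrays, no filter on dim probes, a block for the replicate number, a block for the slide, only the 6 arrays compared, trend and robust moderation, the mean over the probes of a gene, and each array left out, which leaves 2 in its group. Slide 1 alone was chosen after seeing the data. After group means were removed, arrays of the same number in different groups correlated at 0.191 to 0.744 and 10 of 12 arrays were nearest to one of their own number. Every such pair was above 0.1, so the numbers may be paired, and the main fit leaves such a pairing out. Fits with the replicate number as a block are given as an alternative. Arrays of different number and group on the same slide also correlated, at 0.222 to 0.475, so a value above 0.1 does not separate number from slide. The replicate 3 arrays, alone on their slide, correlated with each other at 0.638 to 0.744, so that the shares of number and slide cannot be told apart for replicate 3.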

Additional observations from a re-analysis of the deposited data

How the results depend on the processing

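Over 26 alternatives no called difference of the 9 genes changed direction. The count of genes called between pinosylvin and resveratrol, 2, fell to 1 with quantile normalization and with the series table, and to 0 without the filter on dim probes, with only the 6 arrays compared and within slide 1. It ranged from 0 to 2 when single arrays were left out. In the limma fits with a count of 0, between 2 and 3 genes had an unadjusted p under 0.05. More probes were tested without the filter, and fewer arrays entered the fits of 6 arrays, of slide 1 and of single arrays left out. The cause under the other settings was not tested.

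Of all probes, those called for pinosylvin against control, 4019, became 6947 with the replicate block, 7074 with the slide block, 2409 without the filter and 2479 with only 6 arrays. For resveratrol against control, 4123 became 6769 with the replicate block, 6869 with the slide block and 2680 without the filter. Between the stilbenes, 3528 became 6323 with the replicate block, 6443 with the slide block and 1975 without the filter, and leaving out single arrays gave values from 2148 to 3683. The replicate block made the calls for Ptgs2, Nfkbia and Icam1 given above and changed no other call among the 9 genes.

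The normexp offset is added to every signal and so compresses the log2 differences of dim probes, such as those of Ccl2, Ptgs2 and Il6r. The median of all probes was at most 0.083 under any scaling. Processed signals reached down to 50.9 for Il6, 78.7 for Ptgs2 and 81.5 for Ccl2, while the lowest signals well above background were 15.0 to 30.2. With 3 arrays a group from 1 cell line at 1 dose and time, small differences can be missed, and levels of protein were not measured.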

Other observations

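Interferon-stimulated genes, many of which encode antiviral proteins, were read as a further list. With GR24, 4 of 16 tested genes were higher and 4 lower, no more than the 31.5% and 25.5% of all tested probes, with a median log2 difference of -0.001. Rsad2 read -3.64, -3.78 and -4.13 in control, -1.36, -1.76 and -1.64 with GR24 and -2.41, -2.56 and -2.61 with resveratrol. All arrays of both treatments were above all control arrays. The difference of Rsad2 from control was 2.27 with GR24 (adjusted p = 2.25e-05) and 1.32 with resveratrol (adjusted p = 0.00482), or 1.34 and 0.70 under the normexp correction. Isg15 (1.65) and Ifi44 (1.13) rose with GR24, while the immunoproteasome genes Psmb9 and Psmb8 fell, at -1.05 and -0.70.

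With resveratrol 3 of the 16 genes were higher and 1 lower, with a median of -0.05. Ifit2 read -1.73, -2.05 and -1.56 in control and -0.89, -0.51 and -0.50 with resveratrol, and all 3 treated arrays were above all control arrays (log2 1.15 ± 0.14, SE, adjusted p = 3.66e-04). With pinosylvin 0 of the 16 genes were higher in the limma fit and 2 were lower, Psmb9 (-0.65) and Psmb8 (-0.46).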
